A study of Mus musculus with 4 samples.

Results

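Macrophages build pseudopods, ruffles and podosomes by deciding where actin filaments grow, how they are tied together and where their ends are closed. Ena/VASP proteins (Enah, Evl and Vasp) sit on growing filament ends and speed elongation. Bundling proteins tie filaments together: fascin (Fscn1), the plastins (Lcp1 and Pls3) and the alpha-actinins (Actn1 and Actn4). Gelsolin (Gsn), which also severs filaments, and the macrophage protein CapG (Capg) close the growing end. Several of these proteins come as paralogs of which one is typical of blood cells (Lcp1, Evl, Capg) and another of mesenchymal and other tissue cells (Pls3, Enah, and by comparison Gsn and Actn1). These 10 genes were chosen by symbol from the 19505 genes of the array, and each is represented by 1 probe set.

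RNA was measured in macrophages grown from femoral bone marrow of wild-type (WT) mice and of Hem1 KO mice, which lack the hematopoietic subunit of the WAVE complex, an activator of branched actin assembly. Hem1 is encoded by Nckap1l. Both genotypes were cultured alike, without treatment: RPMI supplemented with 10% fetal calf serum and with 20% L929-conditioned medium, over 8 days. Each genotype has 2 arrays, from different mice per the design text, and the age, sex, strain and deleted part of the gene are not given in the sources used here. Nckap1l itself read 11.37 and 11.11 on the WT arrays, against 10.04 and 9.62 on the Hem1 KO arrays, on the log2 scale of the deposited values. The labels are checked by this gene only if the probes lie within what was deleted.

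Between 12588 and 13074 genes lay above background on an array. Background is the 95th percentile of 1450 chemosensory receptor genes on that array, between 5.38 and 6.04. Replicate 1 of each genotype had the higher median over all genes (6.82 and 6.95, against 6.42 and 6.49 for replicate 2). All 8 measured macrophage markers were above background on every array, and their level summed on the linear scale was 27000 to 34700 on the WT arrays and 23600 to 25600 on the Hem1 KO arrays. Cultures were measured in bulk, so that fewer cells of a type and less RNA per cell cannot be told apart.

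Of the 10 genes, 2 rose in the Hem1 KO macrophages and 0 fell, by limma's moderated test with Benjamini-Hochberg adjustment over all genes (adjusted p under 0.05). Over all 19505 genes, 1.48% passed in the higher direction and 0.133% in the lower. The 2 that rose were Fscn1 and Enah, 1 bundler and 1 Ena/VASP protein. With no adjustment (p under 0.05), 2 of the 10 were higher, against 3.63% of all genes, and 1 was lower, Evl, against 1.57% of all genes. The arrays of the genotypes did not overlap for 4 of the 10 in the higher direction (Fscn1, Pls3, Actn4 and Enah) and for 3 in the lower (Lcp1, Evl and Capg), where 12.5% and 13.3% of all genes did so. The median difference of the 10 was 0.16 on the log2 scale, beside 0.013 over all genes.

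The start regions of the genes that rose, and of Evl, the Enah paralog whose arrays lay lower, are shown because the largest and the opposite differences fall on them. Each is a RefSeq window of GRCm38.p6, from 250 bases before to 50 after an annotated start, read 5′ to 3′ on the gene's strand. Capitals mark matches on either strand to a CRE (TGACGTCA), a TATA box (TATAAA), a GC box (GGGCGG), a TEAD motif (GGAATG), a PU.1 core (GAGGAAG) or a CArG box. Adjacent matches run together where they touch or share bases.
Fscn1, chr5:142960105-142960404, plus strand: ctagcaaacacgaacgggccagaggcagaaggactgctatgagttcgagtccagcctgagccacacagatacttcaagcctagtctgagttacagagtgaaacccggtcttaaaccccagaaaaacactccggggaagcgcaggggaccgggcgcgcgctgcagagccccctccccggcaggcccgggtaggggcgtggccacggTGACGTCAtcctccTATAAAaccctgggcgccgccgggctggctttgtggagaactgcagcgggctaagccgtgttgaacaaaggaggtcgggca
Enah, chr1:182019931-182020230, minus strand: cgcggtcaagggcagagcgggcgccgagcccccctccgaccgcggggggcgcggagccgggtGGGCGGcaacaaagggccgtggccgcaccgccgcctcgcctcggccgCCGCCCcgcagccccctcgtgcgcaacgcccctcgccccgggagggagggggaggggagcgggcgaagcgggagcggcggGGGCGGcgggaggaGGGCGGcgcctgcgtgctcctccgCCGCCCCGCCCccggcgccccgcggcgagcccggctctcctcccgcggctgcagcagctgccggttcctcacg
Evl, upstream start, chr12:108554470-108554769, plus strand: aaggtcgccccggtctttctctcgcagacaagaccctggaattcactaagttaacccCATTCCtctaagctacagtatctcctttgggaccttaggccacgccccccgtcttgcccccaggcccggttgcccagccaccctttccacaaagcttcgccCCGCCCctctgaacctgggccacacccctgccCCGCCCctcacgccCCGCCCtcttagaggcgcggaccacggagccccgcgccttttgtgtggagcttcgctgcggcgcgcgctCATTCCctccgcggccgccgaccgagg
Evl, downstream start, chr12:108605516-108605815, plus strand: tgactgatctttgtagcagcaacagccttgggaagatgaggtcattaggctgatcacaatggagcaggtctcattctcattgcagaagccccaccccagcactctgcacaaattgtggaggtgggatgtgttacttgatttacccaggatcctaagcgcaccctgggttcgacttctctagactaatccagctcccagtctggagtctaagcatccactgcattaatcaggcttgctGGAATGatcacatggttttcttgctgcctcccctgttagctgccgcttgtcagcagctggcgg

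The Fscn1 window held a CRE, which reads the same on both strands, followed by a TATA box. Both motifs were added to the search after this sequence was read. A CRE was found in 1.79% and a TATA box in 13.6% of the 32851 annotated windows of this length, and among the 16 windows of the 10 genes, some of which overlap, the Fscn1 window alone held either. The Enah window had a GC content of 83.3% and 6 GC box matches, a motif found in 35.7% of all windows and in 10 of the 16. The upstream Evl window held 3 GC boxes and 2 TEAD motifs, and the downstream one 1 TEAD motif, which 14.7% of all windows and 7 of the 16 contained. None of the 16 windows held a CArG box, the site of SRF, found in 1.63% of all windows, and 1 held a PU.1 core (13.6% of all), that of Gsn. A match describes these letters and not a bound site.

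Fascin, encoded by Fscn1, packs filaments into the straight bundles of filopodia and is a known marker of mature dendritic cells. Fscn1 read 6.36 and 4.78 on the WT arrays, against 8.83 and 8.35 on the Hem1 KO arrays. Both Hem1 KO arrays lay above both WT arrays, by more than the gap of 1.58 between the WT cultures. The rise was 8.11-fold (log2 difference 3.02, SE 0.45, 95% interval 2.06 to 3.98, adjusted p = 0.00281 by limma), and 99.9% of all genes had a smaller difference. Of the WT arrays only replicate 1 was above background, and replicate 2 (4.78) lay below its array's background of 5.51. The WT level is thus poorly measured, and the 8.11-fold rise and its interval rest in part on that dim value. Without WT replicate 1 the difference was 3.81, against the WT value below background. Without WT replicate 2 it was 2.23, against the WT value above background. Fscn1 passed in all 10 alternative analyses, with a highest adjusted p of 0.0463 when only genes above background on at least 2 arrays were tested.

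Plastins tie filaments into tight parallel bundles. Lcp1, L-plastin, the plastin of leukocytes, read 12.62 and 12.58 on the WT arrays, against 12.47 and 12.51 on the Hem1 KO arrays. The arrays did not overlap, but the difference of -0.10 (SE 0.31, adjusted p = 1.0) was small, with a 95% interval from -0.77 to 0.56, and it turned to 0.033 after quantile normalization. Pls3, T-plastin, the X-linked plastin of non-hematopoietic cells, read 10.09 and 9.59 (WT) against 10.54 and 10.15 (Hem1 KO). Its difference was 0.50 (SE 0.33, adjusted p = 1.0), with an interval from -0.21 to 1.22. The lower Hem1 KO array exceeded the higher WT array by less than the gaps between replicates, which were 0.50 and 0.39. T-plastin RNA exceeded background on all 4 arrays, whereas Fscn1 did on 3.

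Alpha-actinins cross-link filaments in focal adhesions and stress fibres. Actn1 read 9.01 and 8.98 (WT) against 9.38 and 8.93 (Hem1 KO), and the Hem1 KO arrays lay on both sides of the WT arrays (0.15, SE 0.32). Actn4 read 11.93 and 11.96 (WT) against 12.03 and 12.19 (Hem1 KO), higher on both Hem1 KO arrays by little (0.17, SE 0.31). Neither passed (adjusted p = 1.0 for both by limma), and the intervals, -0.54 to 0.85 and -0.50 to 0.84, include changes of either sign.

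**Figure D1:**
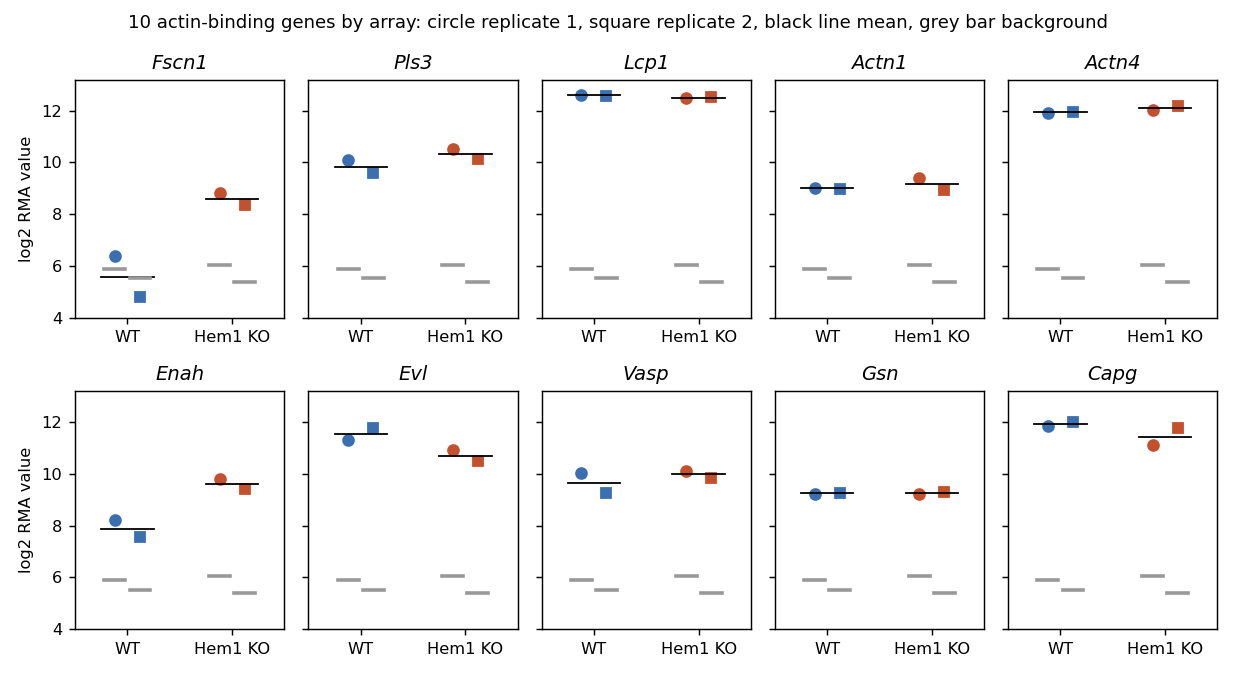
Log2 RMA values (y axis) of the 10 genes in WT and Hem1 KO macrophages (x axis), with circles for replicate 1, squares for replicate 2, black lines for the mean of 2 arrays and grey bars for each array's background. Fscn1 goes from 6.36 and 4.78 to 8.83 and 8.35 and Enah from 8.21 and 7.55 to 9.81 and 9.40, while Lcp1 stays between 12.47 and 12.62.

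Ena/VASP proteins bind the growing filament end and recruit profilin-bound actin. Enah, known as Mena, is the member typical of mesenchymal and neural cells. Enah read 8.21 and 7.55 on the WT arrays, against 9.81 and 9.40 on the Hem1 KO arrays, with no overlap. It rose 3.31-fold (log2 difference 1.73, SE 0.34, 95% interval 0.98 to 2.47, adjusted p = 0.0189 by limma). Enah no longer passed when WT replicate 2 was left out (1.39, adjusted p = 0.275) and when only genes above background on at least 2 arrays were tested (adjusted p = 0.0689).

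Evl is the Ena/VASP protein most typical of blood cells. It read 11.31 and 11.76 on the WT arrays, against 10.91 and 10.51 on the Hem1 KO arrays, so that both Hem1 KO cultures lay below both WT cultures. The difference was -0.83 (SE 0.33, 95% interval -1.54 to -0.12), lower than that of all but 1.2% of genes, and did not pass after adjustment (unadjusted p = 0.0258, adjusted p = 0.658 by limma). It passed in 1 of 10 alternatives, when the prior variance followed intensity (adjusted p = 0.000217), a setting that gave Evl an SE of 0.18. The prior there had infinite degrees of freedom, so that this SE takes no account of Evl's own replicates (SD 0.32 in WT and 0.29 in Hem1 KO). Vasp, the broadly expressed member, read 10.02 and 9.27 (WT) against 10.12 and 9.83 (Hem1 KO). Its arrays overlapped (0.33, SE 0.35, adjusted p = 1.0, interval -0.42 to 1.07), and without WT replicate 2 the sign turned (-0.049).

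CapG closes filament ends without severing them and is abundant in macrophages. Capg read 11.83 and 12.01 on the WT arrays, against 11.10 and 11.77 on the Hem1 KO arrays. The Hem1 KO arrays lay lower, but replicate 1 accounted for most of the difference of -0.49 (SE 0.34, adjusted p = 1.0, interval -1.22 to 0.24), which was -0.15 without it. Gelsolin, which both severs and caps and also exists as a secreted plasma form, was the gene with the smallest difference of the 10. Gsn read 9.24 and 9.24 (WT) against 9.20 and 9.30 (Hem1 KO), a difference of 0.012 (SE 0.31, interval -0.65 to 0.68), and its small difference turned to -0.088 when each array was centred on its median.

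**Figure D2:**
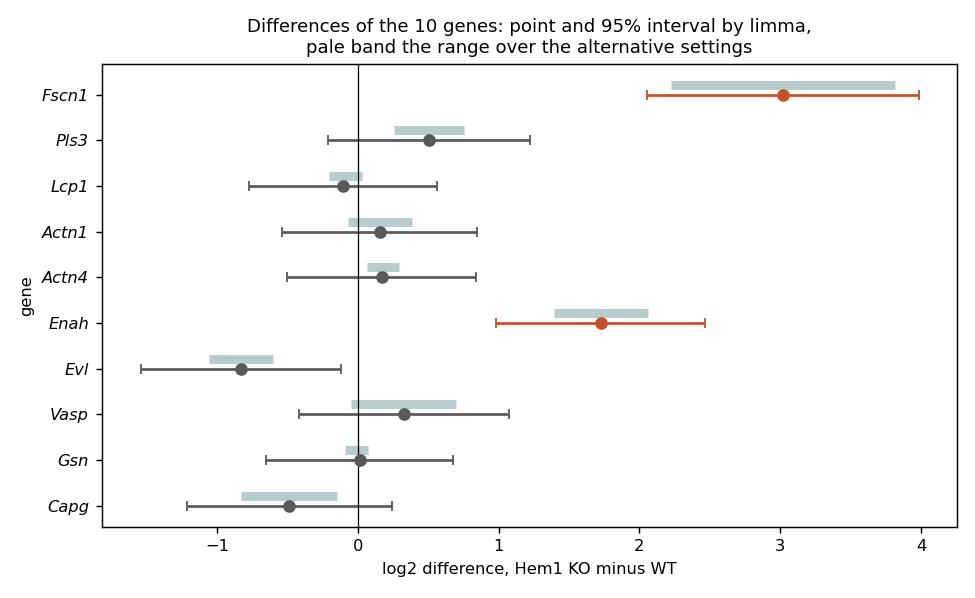
Log2 difference, Hem1 KO minus WT (x axis), of each gene (y axis), with limma's 95% interval as the error bar, red where the adjusted p was under 0.05, and a pale band for the range over the alternative settings. Fscn1 (3.02) and Enah (1.73) stand clear of 0, and the interval of Evl runs from -1.54 to -0.12.

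Paralogs, mainly a tissue against a leukocyte member, were set against each other within each array, which removes any shift common to an array. A change in such a within-array difference shows unequal change of the pair and compares no levels. Enah minus Evl changed by 2.55 on the log2 scale from WT to Hem1 KO (SD 0.56 between replicates), a shift of 5.88-fold between the paralogs. It stood at -3.10 and -4.21 on the WT arrays (mean -3.66) and at -1.10 on each Hem1 KO array. Enah minus Vasp, a pair with the broadly expressed member and no leukocyte one, changed by 1.40 (SD 0.066), from -1.81 and -1.73 to -0.32 and -0.42. It was the pair with the smallest spread between replicates, and Enah and Vasp were both lower in replicate 2 of each genotype.

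Pls3 minus Lcp1 changed by 0.61 (SD 0.31), from -2.53 and -2.99 to -1.94 and -2.37. Gsn minus Capg changed by 0.50 (SD 0.30), from -2.60 and -2.77 to -1.90 and -2.47. In both pairs the arrays of the genotypes did not overlap, and the tissue paralog lay higher relative to the leukocyte one in Hem1 KO. In the second pair this came from Capg (-0.49), since Gsn differed by 0.012. The change of Gsn minus Capg was 0.21 without Hem1 KO replicate 1. Actn1 minus Actn4, also a pair with no leukocyte member, changed by -0.014 (SD 0.31) with overlapping arrays. Over these 5 pairs, the exact two-sided permutation p was 0.333 for the first 4, the smallest that 2 against 2 arrays can give, and 1.0 for Actn1 minus Actn4 (adjusted p = 0.416 and 1.0), so that no pair could pass. The pairs with Enah and Evl share arrays and genes with the single differences above and add no independent evidence to them.

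**Figure D3:**
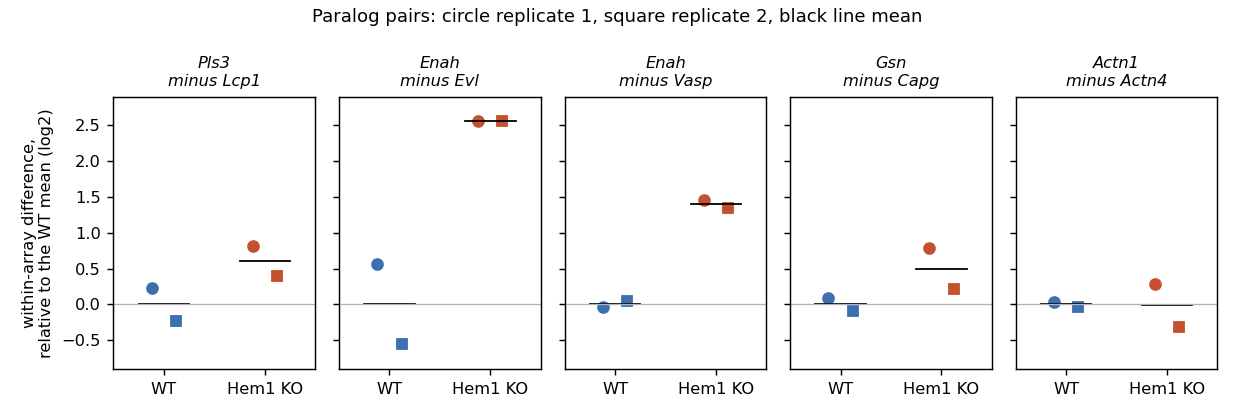
Within-array log2 difference of each paralog pair, relative to its WT mean (y axis), in WT and Hem1 KO macrophages (x axis), with circles for replicate 1, squares for replicate 2 and black lines for means of 2 arrays. Enah minus Evl moves by 2.55 and Enah minus Vasp by 1.40, while Actn1 minus Actn4 stays at -0.014.

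Few other genes of filament bundling, capping and elongation passed. Over all genes 1.48% passed in the higher direction and 0.133% in the lower, and at these shares lists of this size hold few calls. Of 19 measured bundlers and cross-linkers, limma called 0. The median was 0.12, and 3 were higher and 0 lower before adjustment (p under 0.05), against 3.63% and 1.57% of all genes. Those with the smallest p were Palld, palladin, a scaffold of stress fibres that binds VASP and alpha-actinin, and Dbn1, drebrin, a side-binding protein. Palld read 10.43 and 10.44 (WT) against 11.68 and 11.70 (Hem1 KO), a difference of 1.26 (SE 0.31, adjusted p = 0.0721). Its replicates were close together. Palld passed in 4 of 10 alternatives: with the replicate block (adjusted p = 0.00158), after median centring (0.0473), after quantile normalization (0.0164) and with an intensity prior (6.24e-10). The intensity prior takes no account of a gene's own replicates. Palld did not pass in the other 6, among them the test of genes above background (0.0863). Without 1 array its difference ran from 1.25 to 1.26. Dbn1 read 6.25 and 5.83 (WT) against 7.72 and 6.90 (Hem1 KO), a difference of 1.27 (SE 0.36, adjusted p = 0.153). It passed in 3 of 10 alternatives: without Hem1 KO replicate 2 (1.68), with the replicate block (adjusted p = 0.00178) and after median centring (0.0236). Among the 7 in which Dbn1 did not pass was the test of genes above background (0.254). Without 1 array its difference ran from 0.86 to 1.68.

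Of 26 measured gelsolin relatives and capping factors, limma called 0. The median was -0.0074, and 1 was higher and 1 lower before adjustment. Add3, an adducin that caps filaments at the membrane skeleton, read -0.78 (SE 0.31, adjusted p = 0.688), and Eps8l1 lay below background on all arrays. Of 12 Ena/VASP partners, 1 rose and 0 fell, with a median of -0.032, and 2 were higher and 0 lower before adjustment. The gene that rose was Prkg1, the cGMP-dependent kinase that phosphorylates VASP. It read 4.93 and 4.61 on the WT arrays, both below background, and 6.77 and 6.15 on the Hem1 KO arrays. Limma called its difference of 1.69 (SE 0.34, adjusted p = 0.0189), which uses the WT values below background. With the Hem1 KO mean set against background, Prkg1 was at least 1.70-fold higher, a bound that was not itself tested. Prkg1 did not pass when WT replicate 2 was left out (1.53) or in the test of genes above background (adjusted p = 0.0642). Of 15 genes of filament severing and monomer handling, limma called 0. The median was -0.13, and 2 were higher and 0 lower before adjustment. Those with the smallest p were Cap2, an actin monomer recycling protein (0.93, SE 0.33, adjusted p = 0.464), and Ssh2, a phosphatase that activates cofilin (0.68, SE 0.31, adjusted p = 0.936).

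Markers of stromal cells rose beside Fscn1 and Enah. Of 9 measured, 6 rose and 0 fell: Col1a1, Col1a2, Col3a1, Pdgfrb, Cxcl12 and Acta2, with a list median of 1.94. Without WT replicate 2 the count was 3. Their level summed on the linear scale was 2200 to 3010 on the WT arrays and 8280 to 10800 on the Hem1 KO arrays, and Lum and Thy1 lay below background on all arrays. The part of these cells in the differences of Fscn1, Enah, Pls3, Palld and Prkg1 was not tested. Of the 8 macrophage markers, limma called 0, and 1 was lower and 0 higher before adjustment (median -0.34). All 8 differences were below 0. For 5 of the 8 both Hem1 KO arrays lay below both WT arrays, as for 13.3% of all genes.

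No dendritic cell marker passed beside Fscn1. Limma called 0 of 6, and 0 passed before adjustment in either direction. The differences ran from -0.93 to 0.21 (median -0.016), and Flt3, Xcr1 and Siglech lay below background on all arrays. The part of dendritic cells in the difference of Fscn1 was not tested. Ccr7, which marks mature dendritic cells together with fascin, read 8.64 and 8.16 (WT) against 8.68 and 7.98 (Hem1 KO). Among 5 endothelial markers 1 rose, Cdh5, and among 6 basophil and mast cell markers 1 rose, Mcpt8, where 1.48% of all genes rose. Cdh5 lay below background on both WT arrays, and Mcpt8 on WT replicate 2. The medians of these lists were 0.13 and -0.015. None of the measured markers of neutrophils (5), B cells (3), T and NK cells (6), erythroid cells (2) or megakaryocytes (3) was called by limma or had an unadjusted p under 0.05.

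**Figure D4:**
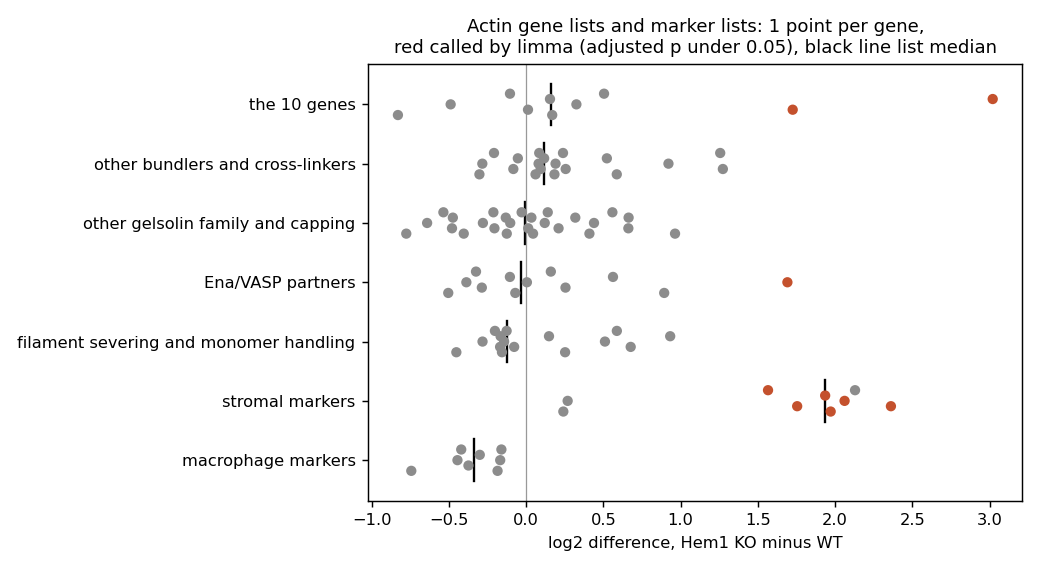
Log2 difference, Hem1 KO minus WT (x axis), of each gene in the actin lists and in the stromal and macrophage marker lists (y axis), 1 point per gene, red where limma's adjusted p was under 0.05, with a black line at each list's median. Among the lists drawn, called genes are Fscn1 and Enah among the 10, Prkg1 among the Ena/VASP partners and 6 stromal markers, whose median is 1.94.

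The genes whose values over the 4 arrays were most like those of Fscn1 and Enah were sought among 12515 genes above background on at least 2 arrays, each gene centred on its own mean. Likeness is the root mean square distance on the log2 scale, and with 4 arrays it describes these cultures only. Nearest to Fscn1 were the receptor adaptor Grb10 (distance 0.16), Pdlim1, a PDZ and LIM protein that binds alpha-actinin (0.17), the lipid phosphatase Plpp1 (0.20) and the membrane protein Gpm6b (0.23). Gpm6b lay below background on both WT arrays and entered the search through the Hem1 KO arrays alone, so that its WT values have no order. The other 3 were lower in WT replicate 2 than in WT replicate 1, by 1.18 to 1.23, which follows from their choice by likeness to Fscn1. Fscn1 itself lay below background on WT replicate 2, so that the distances to it rest in part on a value not measured above background. Pdlim1 read 7.32 and 6.10 (WT) against 9.73 and 9.29 (Hem1 KO). Nearest to Enah were Dysf, dysferlin (0.043), Schip1 (0.058), Tmem47 (0.063) and the secreted protein Igfbp7 (0.067). Dysf too was below background on both WT arrays, and its distance rests on values that were not measured above background there. Igfbp7 read 10.14 and 9.49 (WT) against 11.58 and 11.30 (Hem1 KO), a course close to that of Enah because it was chosen so.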

How the data were processed

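The authors deposited 1 table of log2 values for 4 arrays, made with RMA per the submitters' processing notes, whose version, settings and array annotation build are not given in the sources used here. Of its 29129 rows, 19572 name 1 gene in the platform annotation and 9557 name none and were left out. For 55 genes with several probe sets the brightest by mean was kept, which left 19505 genes. These values were used as deposited, without a filter on dim genes, and the number of arrays limits the precision.

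Hem1 KO was compared with WT, 2 arrays each, with limma 3.58.1 in R 4.3.3 (lmFit, eBayes), two-sided, with Benjamini-Hochberg adjustment over all genes and a threshold of 0.05. The moderated variance has 11.2 prior degrees of freedom. Paralog pairs were tested by exact permutation over arrays. The fit was tested on simulated data. The gene members, lists, markers and tests were chosen with earlier results of these data known.

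Named are the 10 genes and Nckap1l, of each actin list every called gene up to 4 or else the 2 with the smallest p, the called markers, and the 4 nearest profiles of each called gene, without predicted, small RNA or chemosensory receptor genes. Ccr7 was named after its values were seen. Some listed genes are not analysed here. A fold is a bound where both arrays of 1 genotype lay at or below background. Promoter windows come from RefSeq (GRCm38.p6), which held all 10 genes.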

Additional observations from a re-analysis of the deposited data

How the results depend on the processing

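Alternatives left out each array, blocked on the replicate number, centred each array or applied quantile normalization, kept genes above background on 2 or more arrays, let the prior follow intensity, averaged probe sets or loosened the threshold to 0.1. Fits without 1 array assume that the lone array varies like the other group, and borrow their spread from all genes. The count of genes called higher, 288, was 174 with the filter and 185 to 545 without 1 array, and the count lower, 26, was 70 after centring, 16 after quantile normalization, 8 with the filter, 205 with the intensity prior and 26 to 101 without 1 array. Of the 10 genes, 1 was higher with the filter and 1 to 2 without 1 array, and 1 was lower with the intensity prior. Other bundlers called higher numbered 2 after centring, 1 after quantile normalization, 1 with the intensity prior and 0 to 1 without 1 array. Ena/VASP partners numbered 0 with the filter and 0 to 1 without 1 array. Signs turned for Lcp1 after quantile normalization (0.0333), Gsn after centring (-0.0877) and without Hem1 KO replicate 2 (-0.0395), Actn1 without Hem1 KO replicate 1 (-0.0728) and Vasp without WT replicate 2 (-0.0493). Without 1 array, Gsn ran from -0.0395 to 0.0645, Actn1 from -0.0728 to 0.382 and Vasp from -0.0493 to 0.701. Against the 95th percentile of 5222 negative controls as background, 8 of the 10 genes were above it on every array, against 9 in the main setting. Fscn1 and Enah were above it on 2 of 4 arrays and Prkg1 on 0. The bound given for Prkg1 thus holds only for the chemosensory background.

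The labels give both genotypes replicates 1 and 2 but do not say that a number pairs arrays. The replicate differences of the genotypes correlated at 0.241 across genes (which are not independent replicates). With the replicate block, 620 genes were higher and 199 lower, and the actin lists had 3 bundlers, 1 capping gene, 2 Ena/VASP partners and 1 severing gene higher. The block changed no call among the 10 genes. Enah minus Evl ran from 2.00 to 3.11 without 1 array. Leaving out 1 array cannot move a paralog pair change by more than the SD between replicates, whatever the values. Those fits therefore do not test whether the pair changes hold. Of the other settings only quantile normalization could change a pair, and each pair change stayed within that SD (Enah minus Evl 2.43, Enah minus Vasp 1.35).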
